A study of Mus musculus with 12 samples.

Results

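The Foxo genes are 4 of the 25428 probe sets measured in mouse striatum, the forebrain nucleus that receives cortical and dopaminergic input. They were chosen by name: Foxo1, Foxo3, Foxo4 and Foxo6, each represented by 1 probe set named by its gene identifier. Foxo1 was put forward with its fall in the knockout already known, so its difference between genotypes is given as a description without a test. Genes whose level followed Foxo1 from array to array were then added by their correlation with it inside each genotype, which gave 24 genes.

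Striata of both hemispheres came from 12 embryos at embryonic day 18.5, with 1 array each. The 6 wild-type (WT) embryos and the 6 Nestin-Cre (Foxp1-/-) embryos, called cKO, were all on the C57BL/6J background. Nestin-driven Cre acts in neural progenitors and therefore in the neurons and glia that come from them. The labels do not say whether the WT embryos carried Cre or a floxed allele. All values are expression values on the log2 scale after robust multi-array averaging (RMA), so 1 unit is a doubling, and the array median is 5.71. Levels of different probe sets are not comparable as amounts of RNA.

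Foxo proteins are forkhead transcription factors that sit at the end of insulin and growth factor signalling. When PI3K activates Akt, Akt phosphorylates Foxo proteins, 14-3-3 proteins bind them, and they leave the nucleus; with low signalling they stay in the nucleus and act on genes of cell cycle arrest, stress resistance, autophagy and metabolism. Arrays of RNA see the transcript only, not phosphorylation or location. Foxp1, the deleted gene, is a forkhead factor of another subfamily and is abundant in striatal projection neurons.

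Start-site sequences are shown for Foxo1, whose level differed between the genotypes, and Foxo3, whose level differed little. Each runs from 250 bases before to 50 after the annotated start (RefSeq, GRCm38.p6), 5′ to 3′ on the gene's own strand. Foxo1 lies at chr3:52268087-52268386 on the plus strand and Foxo3 at chr10:42276646-42276945 on the minus strand. Capitals mark the letters CCAAT, known as the CCAAT box, and the letters GGGCGG, known as the GC box, each searched on both strands.
Foxo1: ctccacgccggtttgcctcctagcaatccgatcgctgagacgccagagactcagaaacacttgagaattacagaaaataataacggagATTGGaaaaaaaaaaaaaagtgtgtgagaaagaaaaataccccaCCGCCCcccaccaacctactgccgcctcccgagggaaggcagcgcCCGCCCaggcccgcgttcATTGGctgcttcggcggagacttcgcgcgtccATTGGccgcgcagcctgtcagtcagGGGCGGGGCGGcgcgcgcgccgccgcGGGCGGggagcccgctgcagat
Foxo3: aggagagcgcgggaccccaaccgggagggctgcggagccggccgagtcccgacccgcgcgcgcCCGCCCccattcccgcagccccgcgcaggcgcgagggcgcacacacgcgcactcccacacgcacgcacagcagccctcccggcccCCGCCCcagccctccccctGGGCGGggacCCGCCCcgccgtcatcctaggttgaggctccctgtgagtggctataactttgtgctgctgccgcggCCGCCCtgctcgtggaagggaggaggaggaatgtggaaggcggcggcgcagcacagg
The Foxo1 window held 3 CCAAT matches and 5 GGGCGG matches, of which 1 pair shares a base. The Foxo3 window held 0 CCAAT matches and 5 GGGCGG matches. CCAAT was found in 37.4% and GGGCGG in 35.7% of all 32851 windows of this length. The forkhead letters GTAAACA, on both strands, were found in neither window and in 3.65% of all windows. These matches describe the letters of the windows and nothing about binding.

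Foxo1 was lower in every cKO array than in any WT array. Its level in WT replicates 1 to 6 was 6.90, 7.21, 7.92, 7.30, 7.01 and 7.92. In cKO replicates 1 to 6 it was 6.40, 6.37, 6.34, 6.12, 6.30 and 6.23. The WT arrays thus ran over about 1 unit, with replicates 3 and 6 well above the other 4, while the cKO arrays lay close together. The WT mean was 7.38 ± 0.44 (SD, n = 6). The cKO mean was 6.30 ± 0.10 (SD, n = 6), 2.12-fold lower, with a difference of -1.08 ± 0.17 (SE). The gap between the lowest WT and the highest cKO array was 0.50. Over all probe sets, 1.38% had groups that did not overlap in either direction, and 0.822% lay lower in cKO without overlap; since Foxo1 was chosen with this fall in view, nothing is read from that share. In this bulk tissue, fewer cells that express Foxo1 and less Foxo1 RNA per cell cannot be told apart.

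The spread of Foxo1 also differed between the genotypes. Its SD in WT was 4.30 times that in cKO, against a median ratio of 1.13 over all probe sets, and 229 probe sets had a larger ratio. In WT 37 of the 25428 probe sets had a larger SD. The ratio rests on WT replicates 3 and 6: without them the WT mean was 7.11 ± 0.19 (SD), the SD ratio was 1.80, and Foxo1 was 1.75-fold lower in cKO, a difference of -0.81 ± 0.08 (SE). Over all probe sets these 2 arrays were the least correlated pair of the 12, with r = 0.992 where all pairs ran from 0.992 to 0.998.

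Foxp1, the deleted gene, spanned 10.89 to 11.39 in WT and 10.14 to 10.36 in cKO, with no overlap. It fell by 0.91 ± 0.07 (limma adjusted p = 0.00017), in the direction of the labels on all 12 arrays. The positions of its probes are not given in the sources used here.

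Foxo3, Foxo4 and Foxo6 did not pass the test. By rank of mean level, Foxo1 lay above 75.3% of all probe sets, Foxo3 above 70.5%, Foxo6 above 58.9% and Foxo4 above 50.9%. Foxo3 encodes the family member known for stress resistance and longevity. Its WT replicates 1 to 6 read 6.33, 6.52, 6.55, 6.60, 6.64 and 6.59, and its cKO replicates 6.50, 6.38, 6.40, 6.51, 6.46 and 6.46. The groups overlapped only because WT replicate 1 was low. The difference was -0.09 ± 0.05 (SE), with a 95% interval from -0.19 to 0.01 (limma adjusted p = 0.535).

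Foxo4, another Akt-regulated member, lay at the median of all probe sets. It spanned 5.70 to 5.76 in WT and 5.66 to 5.79 in cKO, with a difference of 0.02 ± 0.02 (SE), a 95% interval from -0.03 to 0.06 and a limma adjusted p of 0.843. It lay near the floor of the arrays, whose lowest value was 5.21, so a fall had little room.

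Foxo6, the member known for expression in the brain, was read at 5.84, 5.92, 6.07, 6.05, 5.95 and 5.97 in WT replicates 1 to 6 and at 5.96, 6.06, 5.86, 5.84, 5.88 and 5.96 in cKO. The ranges were almost the same. The difference was -0.04 ± 0.05 (SE), with a 95% interval from -0.14 to 0.06 (limma adjusted p = 0.802). The opposite-strand transcript Foxo6os, chosen after its values were seen, stayed between 5.49 and 5.57 in all arrays (difference -0.01 ± 0.02, limma adjusted p = 0.930). The intervals of these 3 genes do not reach the size of the Foxo1 fall. However, the lowest value on the arrays was 5.21, so Foxo4 and Foxo6 had no room for a difference of -1.08. The differences between Foxo genes were not tested against each other.

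**Figure D1:**
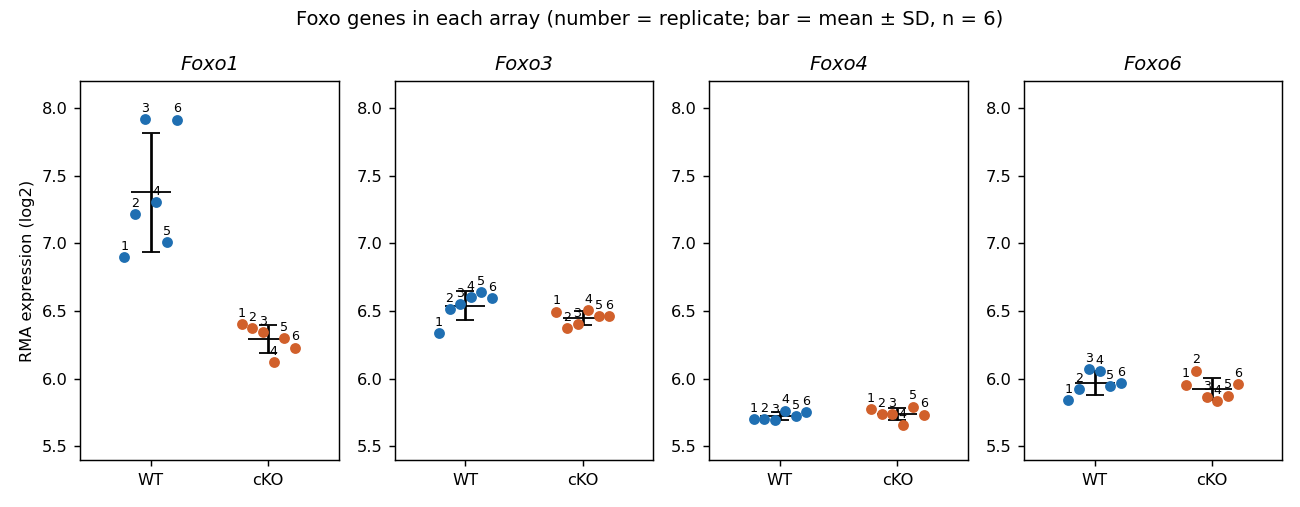
RMA log2 expression (vertical axis) of the 4 Foxo genes in the 6 WT and 6 cKO arrays; each point is an array with its replicate number, and bars give the mean ± SD. Foxo1 had a mean of 7.38 in WT and 6.30 in cKO with no overlap, and WT replicates 3 and 6 both read 7.92; the other 3 genes overlapped.

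Of the 42 other forkhead genes measured, 3 of them opposite-strand transcripts, Foxp1 was the one that fell, and 0 rose. Over all probe sets 0.728% passed the adjusted p of 0.05 (0.429% lower and 0.299% higher in cKO). At a raw limma p below 0.05, 1287 of the 25428 probe sets were higher and 1442 lower. Without Foxp1, 0 of 41 passed in limma, and 2 were higher and 4 lower at a raw p below 0.05. Their median difference was -0.01, against -0.00077 over all probe sets, and 14 of the 41 lay above the median level. Foxp4, a relative of Foxp1 outside the naming rule, had a value of -0.31 ± 0.09 (limma adjusted p = 0.181), with all cKO arrays (8.05 to 8.31) below all WT arrays (8.32 to 8.90). Foxo1 was chosen with its fall known, so nothing is read from the size of that fall beside these genes.

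The signalling genes upstream and downstream of Foxo proteins were described by lists of 143 genes, of which 135 were measured. In these, 2 rose and 1 fell, which is 2.22% against 0.728% of all probe sets. Of the 135, 112 lay above the median level, and 1.30% of the 12286 named probe sets above that level passed. The lists were written with earlier results of these data known, so nothing is read from these shares. At a raw p below 0.05 there were 18 higher and 11 lower of the 135, against 1287 and 1442 of all 25428 probe sets. Among the 12286 named probe sets above the median level there were 919 higher and 1012 lower. The median difference of the listed genes was 0.02.

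Among ligands, receptors and adaptors, 22 of 22 were measured, 1 fell and 1 rose. That is 9.09%, against 0.728% of all probe sets, and nothing is read from this share. Ntrk3, the receptor for neurotrophin-3, which signals to PI3K, spanned 9.98 to 10.26 in WT and 9.72 to 9.85 in cKO, without overlap. It fell by 0.31 ± 0.04 (limma adjusted p = 0.00662). Igfbp3, a binding protein of insulin-like growth factors, read 6.54, 6.42, 6.44, 6.39, 6.52 and 6.42 in WT and 6.60, 6.66, 6.72, 6.62, 6.57 and 6.77 in cKO. It rose by 0.20 ± 0.04 (limma adjusted p = 0.0333), and the gap between the groups was small. Its call was lost without WT replicate 2, 3, 4 or 6 or cKO replicate 2, 3 or 6, and its adjusted p ran from 0.0206 to 0.178 over all alternatives. The list median was 0.0041.

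Among PI3K-Akt kinases and phosphatases, 28 of 30 genes were measured and 0 passed in limma, with 4 higher and 1 lower at a raw p below 0.05. The median difference was 0.0013. Sgk1, a kinase related to Akt that phosphorylates Foxo proteins, read 5.68 to 5.83 in WT and 5.85 to 5.98 in cKO. These ranges did not overlap, but the difference of 0.12 ± 0.03 missed the threshold (limma adjusted p = 0.0863). Pik3cb, a catalytic PI3K subunit, had a difference of 0.19 ± 0.06 (limma adjusted p = 0.249).

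Among modifiers and partners of Foxo proteins, 33 of 36 were measured and 0 passed in limma, with 2 higher and 2 lower at a raw p below 0.05 and a median of 0.03. Trib2, a pseudokinase known to restrain Foxo activity, had the smallest p, with 0.21 ± 0.05 (limma adjusted p = 0.0730). It passed without WT replicate 1 (adjusted p = 0.02) and in the fit limited to probe sets above the median level. Dyrk1a, a kinase that phosphorylates Foxo1, had 0.09 ± 0.03 (limma adjusted p = 0.216).

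Of the 55 genes listed as targets of Foxo proteins in other tissues, 52 were measured, 36 of them above the median level. In limma 1 rose and 0 fell (1.92%, against 0.728% of all probe sets), and 8 were higher and 5 lower at a raw p below 0.05. The median was 0.02, with 34 positive and 18 negative values. The gene that rose was Tle4, a Groucho corepressor that also marks deep-layer cortical neurons. It read 9.55 to 9.73 in WT and 9.87 to 10.02 in cKO and rose by 0.29 ± 0.03 (limma adjusted p = 0.00303). Tle4 and Ntrk3 each passed in 21 of 22 alternatives. On the same arrays the mean of 11 cortical glutamatergic markers was 6.17 ± 0.13 (SD, n = 6) in WT, within 6.00 to 6.39, while cKO had 6.34 ± 0.23 (SD, n = 6), within 6.02 to 6.57. All 11 cortical markers had positive differences and 0 passed in limma, with 2 higher at a raw p below 0.05. With their mean as a covariate Tle4 still passed, but whether cortical cells contributed to its rise was not tested. Fbxo32, an atrophy-linked ubiquitin ligase and classical Foxo target singled out after its value was seen, had -0.16 ± 0.03 (limma adjusted p = 0.0538).

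**Figure D2:**
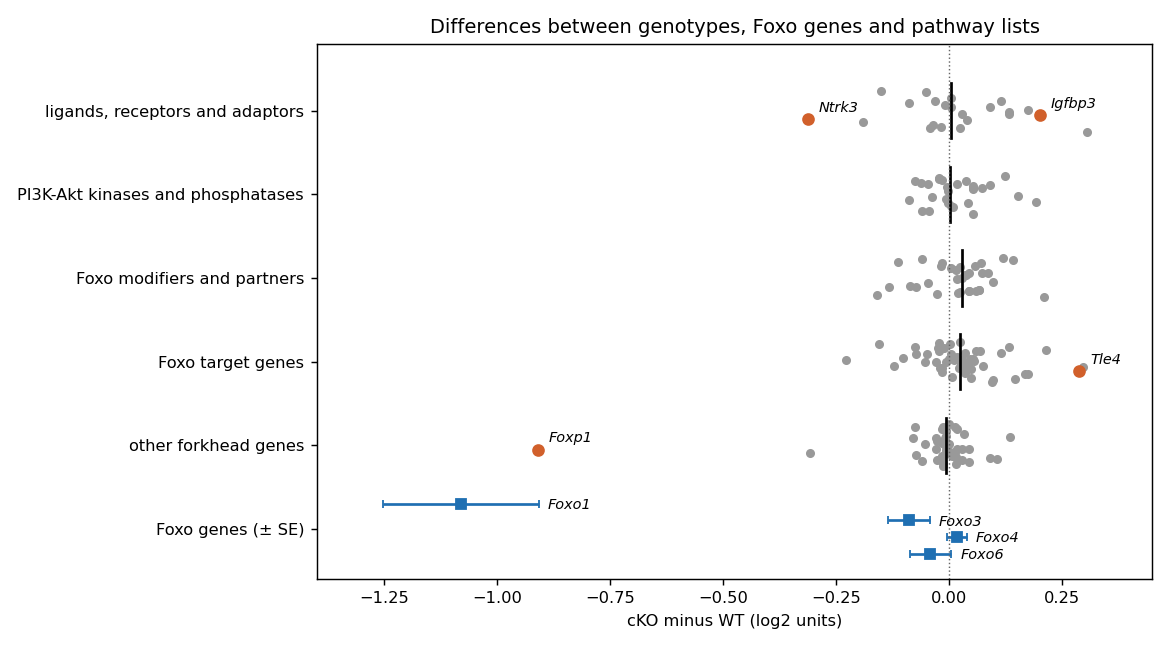
Difference between genotypes in log2 units (horizontal axis) for each gene of 4 pathway lists and of the other forkhead genes; orange points passed limma's adjusted p of 0.05, grey points did not, and black ticks are list medians. The bottom row gives the 4 Foxo genes with SE: Foxo1 lies at -1.08, beyond Foxp1 at -0.91, while the list medians lie between -0.01 and 0.03.

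The arrays were next searched for genes whose level followed Foxo1. Pearson's r with Foxo1 was computed over the 6 WT and, separately, over the 6 cKO arrays for 12286 named probe sets above the median level. A gene was counted as a follower with r of at least 0.8 in both. This gave 24 followers, 2 of them without a standard gene name. These correlations chose the genes and are given without a p.

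Rbms1, a single-stranded nucleic acid binding protein, followed Foxo1 most closely, with r = 0.94 in WT and 0.99 in cKO. Its level was 7.02, 7.05, 7.20, 7.03, 6.95 and 7.17 in WT replicates 1 to 6 and 6.69, 6.68, 6.67, 6.45, 6.61 and 6.55 in cKO. In cKO the order of the 6 arrays was the same for both genes, with replicate 1 highest and replicate 4 lowest. Without WT replicates 3 and 6, r over the 4 remaining WT arrays was 0.52, so the WT relation rests largely on those arrays.

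Next came Fdxacb1 (0.93 in WT and 0.95 in cKO), Ago1, an Argonaute protein of microRNA silencing (0.96 and 0.91), Xylb, a xylulose kinase (0.90 and 0.89), and Srl, a calcium-binding protein (0.90 and 0.88). Hunk, a protein kinase, had 0.91 and 0.87, Gltp, a glycolipid transfer protein, 0.94 and 0.87, and Mrtfa, a coactivator of serum response factor, 0.92 and 0.87. Next by likeness were the adhesion molecule gene Flrt2 (0.90 and 0.87), Asb6 (0.90 and 0.86), the autophagy gene Nrbf2 (0.95 and 0.86), the kainate receptor gene Grik3 (0.86 and 0.88), the ligand gene Wnt7a (0.84 and 0.85), Fignl1 (0.94 and 0.84) and the kinase gene Sbk1 (0.83 and 0.85). Fdxacb1 and Xylb lay at the median level with SDs of 0.02 to 0.04, below the median residual SD of 0.047 over all probe sets. Without WT replicates 3 and 6, 11 of the 24 followers kept r of at least 0.8 over the remaining WT arrays, and the median was 0.78. The lowest values were -0.06 for Sbk1, 0.20 for Flrt2 and 0.38 for Gltp, so their WT relation rests largely on those 2 arrays.

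The genes just inside the limit were Gpx7 (0.89 and 0.81) and Ankrd13a (0.85 and 0.80), and those just outside were Smtnl1 (0.79 and 0.97) and Bend4 (0.79 and 0.80). Igfbp4, another binding protein of insulin-like growth factors, was the 1 pathway gene among the followers (0.82 and 0.88). Foxo3, Foxo4 and Foxo6 were not followers.

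The difference between genotypes was not used in choosing followers. Rbms1 fell by 0.46 ± 0.05 (limma adjusted p = 0.00145), from 7.07 ± 0.09 (SD, n = 6) to 6.61 ± 0.09 (SD, n = 6), with all cKO arrays below all WT arrays, and it passed in all 22 alternatives. It was the 1 follower of 24 that passed, or 4.17%, against 1.30% of the 12286 probe sets searched. At a raw p below 0.05 there were 3 followers lower and 1 higher, against 1012 and 919 of the 12286 probe sets searched. Flrt2, at 10.05 to 10.36 in WT and 9.82 to 10.03 in cKO, also had no overlap, as 2.17% of the probe sets searched did (1.29% lower in cKO), and its difference was -0.27 ± 0.06 (limma adjusted p = 0.0753). It passed with dim probe sets left out and with a trended, robust prior. The remaining followers had differences between -0.16 and 0.17, with a median over all 24 of -0.02. The other 23 followers were not called between the genotypes. Most of the 12286 probe sets searched were also not called, so nothing is read from that count.

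The followers had a median SD of 0.095 in WT and 0.081 in cKO. Foxo1 had an SD of 0.44 in WT and 0.10 in cKO, where it still varied more than 89.0% of all probe sets. The cKO correlations thus span a narrower range of Foxo1 than those in WT.

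Followers in 1 genotype were mostly not followers in the other. Of 393 genes with r of at least 0.8 in WT, 24 (6.11%) reached it in cKO, where 3.74% of all 12286 did. Of 460 genes that reached it in cKO, 24 (5.22%) did so in WT, where 3.20% of all did. The median r in cKO of the 393 WT genes was -0.06, against -0.02 over all genes. Genes are not independent replicates, and no test was made of these shares.

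Mirror genes, with r of -0.8 or below in both genotypes, numbered 14. The closest named ones were Rnpc3, a minor spliceosome protein (-0.91 in WT and -0.94 in cKO), Sema3a, a secreted axon repellent (-0.89 and -0.89), Cpsf3, the nuclease of pre-mRNA 3′ cleavage (-0.84 and -0.98), Prpf39, a splicing factor (-0.84 and -0.92), and Vps33b, a trafficking protein (-0.86 and -0.84). In limma 0 of the 14 passed between genotypes, with 1 lower and 0 higher at a raw p below 0.05. Without WT replicates 3 and 6, r of Rnpc3 over the other 4 WT arrays was -0.19 and that of Vps33b was 0.53.

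**Figure D3:**
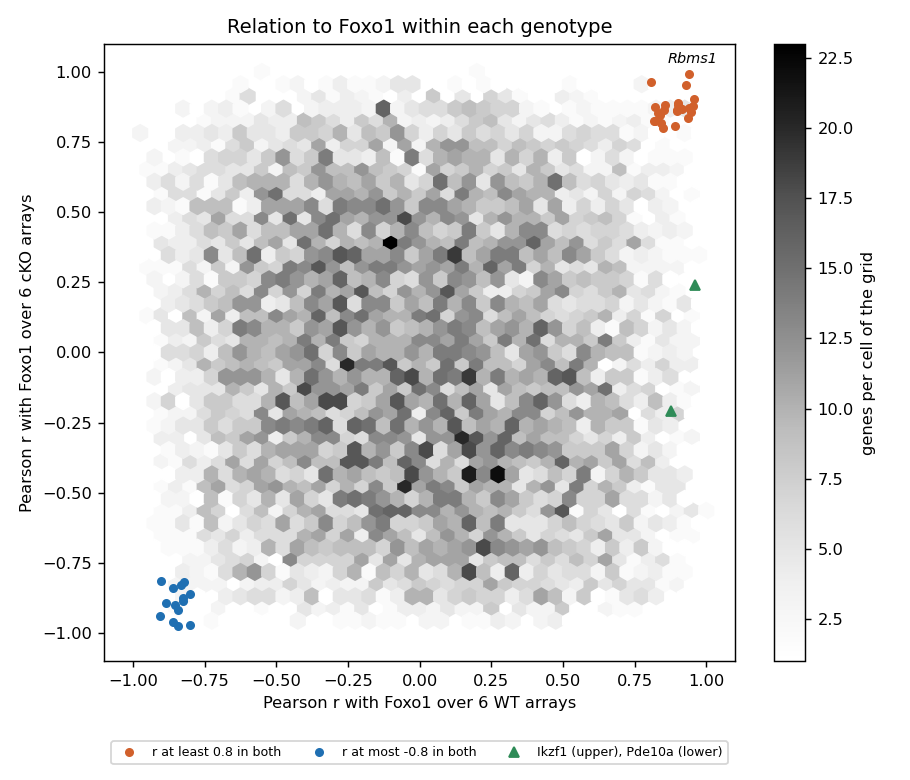
Pearson r with Foxo1 over the 6 WT arrays (horizontal axis) and over the 6 cKO arrays (vertical axis) for 12286 named genes, shaded by the number of genes in each cell of the grid. Orange points are the 24 followers, blue points the 14 mirror genes, and green triangles are Ikzf1 and Pde10a, with r of 0.96 and 0.88 in WT and 0.24 and -0.21 in cKO.

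Windows around the start site were found for 20 of the 24 followers, 25 windows in all. The forkhead letters GTAAACA were found in 0 of the 20 genes, where 3.65% of all windows hold them. CCAAT was found in 6 and GGGCGG in 14 of the 20 genes, against 37.4% and 35.7% of all windows. The counts are per gene and some genes had 2 windows, so these shares are not directly comparable. The full set of windows was also not limited to genes above the median level. With so few follower windows, nothing is read from these counts. Rbms1 had windows at chr2:60963155-60963454 and chr2:60881389-60881688, both on the minus strand, with 2 and 6 GGGCGG matches and 0 CCAAT matches.

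Marker genes of striatal projection neurons, a cell type in which Foxo1 is known to be expressed, were set beside it. All 23 markers analysed here lay above the median level. In WT, 6 of the 23 (26.1%) had r of at least 0.8 with Foxo1, against 3.20% of the genes searched. They were the receptor gene Gpr6 (0.96), the Ikaros factor gene Ikzf1 (0.96), Ppp1r1b, which encodes DARPP-32 (0.91), the G protein gene Gnal (0.91), the phosphodiesterase gene Pde10a (0.88) and the tachykinin gene Tac1 (0.87). Gpr6, Ppp1r1b, Gnal and Tac1 were singled out after their values were seen. In cKO the corresponding values were 0.51, 0.24, -0.50, -0.55, -0.21 and -0.90. In cKO 1 of 23 (4.35%) had r of at least 0.8, against 3.74%. The median r of the list was 0.58 in WT and 0.19 in cKO. Whether the relation differed between the genotypes was not tested.

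The mean level of the 23 markers was 8.84, 8.98, 9.06, 9.07, 8.87 and 9.04 in WT replicates 1 to 6 and 8.90, 8.76, 8.89, 8.86, 8.80 and 8.81 in cKO. WT replicates 1 and 5 were lowest in both this mean and Foxo1. Their r was 0.80 in WT (exact permutation p = 0.0792, adjusted p = 0.397; rho = 0.83, exact p = 0.0583, adjusted p = 0.408) and 0.44 without the 2 arrays farthest from the median. WT replicates 3 and 6 were also left out, a choice made after seeing the data, which left 4 WT arrays. Over these, r with Foxo1 was 0.98 for the marker mean, 0.84 for Foxp1, 0.83 for Foxo6 and 0.64 for Foxo4. It was 0.57 for Foxo3, -0.15 for the cortical mean and -0.71 for the endothelial mean. With 4 arrays and no test, nothing is read from these values. For the marker mean, r was 0.44 when the 2 arrays farthest from the median were left out instead. In cKO r was 0.04 (exact permutation p = 0.942, adjusted p = 0.942; rho = 0.20, exact p = 0.714, adjusted p = 0.833) and 0.05 without the 2 farthest. Between the genotypes 2 of the 23 fell and 0 rose, or 8.70%, against 1.30% of the 12286 genes searched. The list was chosen with earlier results of these data known, so nothing is read from this share. At a raw p below 0.05, 5 were higher and 11 lower, against 919 and 1012 of the 12286 genes searched. Differences were negative for 13 markers and positive for 10, from -0.59 to 0.38. Ikzf1 fell by 0.59 ± 0.07 (limma adjusted p = 0.00353) and Pde10a by 0.59 ± 0.09 (limma adjusted p = 0.00869). Each passed in 21 of 22 alternatives and was lost with the replicate number as a block (limma adjusted p = 0.0718 for both).

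**Figure D4:**
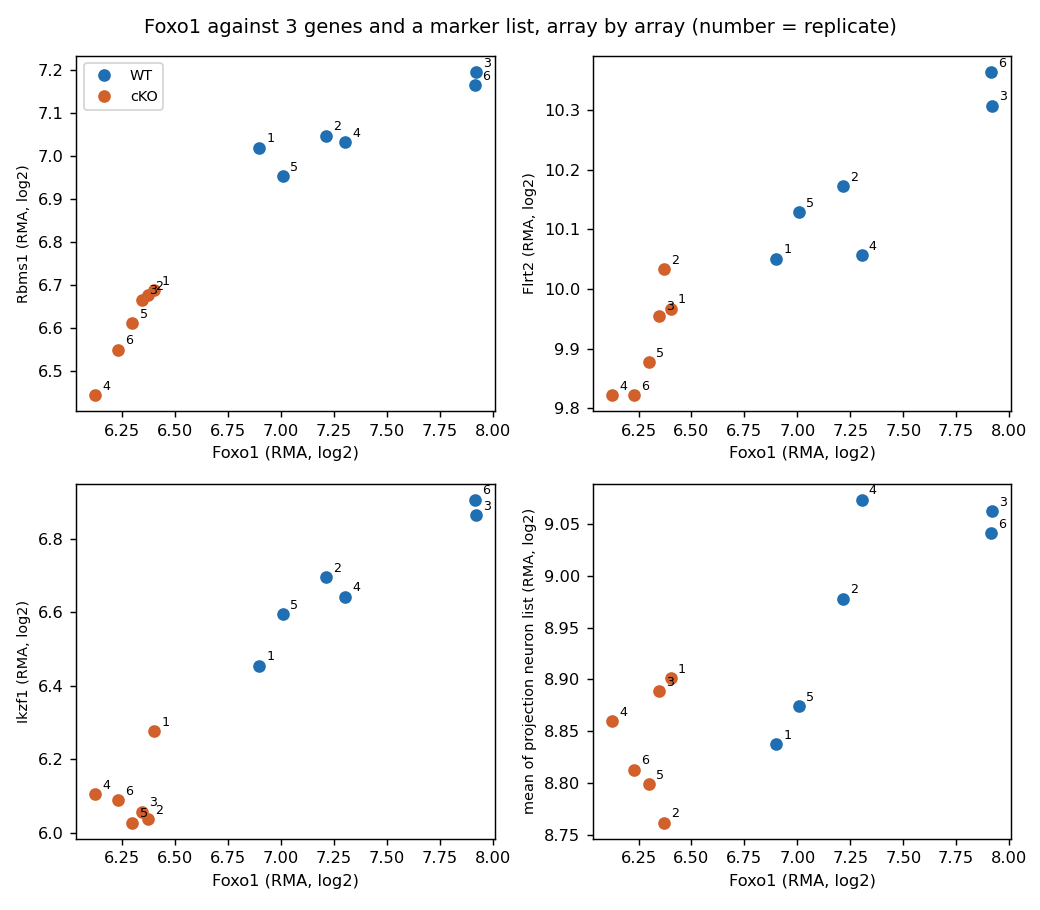
Foxo1 level (horizontal axes) against Rbms1, Flrt2, Ikzf1 and the mean of 23 projection neuron markers (vertical axes), all RMA log2, with 1 numbered point per array in blue for WT and orange for cKO. Rbms1 rises with Foxo1 in both genotypes (r = 0.94 and 0.99), while Ikzf1 does so in WT (r = 0.96) and has r = 0.24 in cKO. Without WT replicates 3 and 6, r in WT was 0.52 for Rbms1 and 0.20 for Flrt2.

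Foxo1 is also expressed in endothelial cells, so their markers were read as well. The mean of 18 endothelial markers spanned 6.35 to 6.44 in WT and 6.39 to 6.45 in cKO, and 0 passed in limma, with 1 higher at a raw p below 0.05. The r with Foxo1 was 0.18 in WT (exact permutation p = 0.713, adjusted p = 0.781; rho = -0.03, exact p = 1, adjusted p = 1) and 0.55 in cKO (exact permutation p = 0.267, adjusted p = 0.397; rho = 0.37, exact p = 0.497, adjusted p = 0.696). Without the 2 arrays farthest from the median the values were -0.76 and 0.69. For the cortical marker mean, r was -0.62 in WT (exact permutation p = 0.207, adjusted p = 0.397; rho = -0.43, exact p = 0.419, adjusted p = 0.652) and -0.58 in cKO (exact permutation p = 0.212, adjusted p = 0.397; rho = -0.66, exact p = 0.175, adjusted p = 0.613), and -0.01 and -0.18 without the 2 farthest. With the cortical mean as a covariate the Foxo1 difference was -0.96 ± 0.18.

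Foxp1 and Foxo1 were compared inside each genotype. In WT r was 0.70 (exact permutation p = 0.124, adjusted p = 0.397; rho = 0.60, exact p = 0.242, adjusted p = 0.652), and 0.35 without the 2 arrays farthest from the median. In cKO r was -0.68 (exact permutation p = 0.144, adjusted p = 0.397; rho = -0.43, exact p = 0.419, adjusted p = 0.652), and 0.58 without the 2 farthest, so its sign rests on cKO replicates 2 and 4.

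Foxo1 was also set against its family members inside each genotype. With Foxo3, r was 0.40 in WT (exact permutation p = 0.475, adjusted p = 0.605) and -0.52 in cKO (exact permutation p = 0.283, adjusted p = 0.397), with rho of 0.20 and -0.43 (exact p = 0.714 and 0.419, adjusted p = 0.833 and 0.652). With Foxo4, r was 0.18 in WT (exact permutation p = 0.725, adjusted p = 0.781) and 0.74 in cKO (exact permutation p = 0.0986, adjusted p = 0.397), with rho of 0.03 and 0.66 (exact p = 1 and 0.175, adjusted p = 1 and 0.613). With Foxo6, r was 0.66 in WT (exact permutation p = 0.160, adjusted p = 0.397) and 0.55 in cKO (exact permutation p = 0.274, adjusted p = 0.397), with rho of 0.89 and 0.49 (exact p = 0.0333 and 0.356, adjusted p = 0.408 and 0.652). Leaving out the 2 arrays farthest from the median gave 0.26 and -0.22 for Foxo3, -0.53 and 0.63 for Foxo4, and 0.11 and -0.09 for Foxo6. None of these 14 relations passed after adjustment.

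The ranges of other cell type marker means overlapped between the groups. The means of progenitor and cycling cell markers spanned 8.18 to 8.46 in WT and 8.32 to 8.50 in cKO, with 13 of 14 differences positive, 0 passing in limma and 4 higher at a raw p below 0.05; Sox2 had 0.37 ± 0.09 and Nes 0.23 ± 0.07. Microglial means ran from 5.82 to 5.88 and from 5.83 to 5.88, pericyte means from 6.52 to 6.58 and from 6.54 to 6.63, and astrocyte and oligodendrocyte means from 7.15 to 7.41 and from 7.26 to 7.30. In limma 0 genes of these 3 lists passed, with 2 higher and 5 lower at a raw p below 0.05. Sox9, of the astrocyte and oligodendrocyte list, had -0.36 ± 0.10 (limma adjusted p = 0.141). It passed without WT replicate 1 (limma adjusted p = 0.0324). Of 11 choroid plexus and meninges markers 0 passed in limma and 0 had a raw p below 0.05. There, cKO replicate 1 stood apart, with Ttr, a choroid plexus gene, at 9.96 where the other arrays read 5.39 to 5.57. Without that array the Foxo1 difference was -1.10 ± 0.19.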

How the data were processed

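The deposited values are log2 expression values made by the authors with RMA, per the submitters' processing notes, which give no version. The array model and the probe positions are not given in the sources used here. Probe sets were named from the platform annotation and RefSeq (24674 of 25428 named, 754 unnamed). The titles call the 12 samples biological replicates. Differences are cKO minus WT from limma 3.58.1 (lmFit and eBayes, R 4.3.3) over all 25428 probe sets, with Benjamini-Hochberg adjustment and a threshold of 0.05, and were tested on simulated data. Precision is limited by 6 arrays a group. Followers needed Pearson r of at least 0.8 in both groups, among named probe sets above the median of means (5.71). Relations between 2 measures used exact two-sided permutation over 720 pairings. Members and lists were chosen with earlier results of these data known. Named genes were the Foxo genes, Foxp1, the closest 15 followers and 5 mirror genes. In each list they were up to 6 genes past the threshold or the 2 with the smallest p, not all of them printed. The genes just inside and outside the follower limit, Igfbp4 and Ttr were named outside this rule. Further additions are marked where they appear. The 22 alternatives covered normalization, dim probe sets, prior, array weights, replicate block, covariates (3 Y-linked genes, cortical markers) and arrays left out. Same-numbered WT and cKO arrays did not deviate together.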

Additional observations from a re-analysis of the deposited data

Results flagged for a closer look

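In 6 of 124 groups of 6 arrays checked, the highest or lowest array stood apart from the others by a gap, relative to the group's whole range, above Dixon's 95% critical value, where chance gives about 1 group in 20. In cKO replicate 4, Asb6 was lowest at 5.87 (next 6.00) and Rnpc3 highest at 9.89 (next 9.74). In WT, Ntrk3 was highest in replicate 6 at 10.26 (next 10.08) and Trib2 in replicate 1 at 7.30 (next 7.15). In cKO replicate 1, Ikzf1 was highest at 6.28 (next 6.11), and so was the choroid plexus and meninges marker mean at 5.96 (next 5.60).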

How the results depend on the processing

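The differences of Foxo1, Foxo3, Foxo4 and Foxo6 kept their direction in all 22 alternatives, with Foxo1 between -1.18 and -0.97 when 1 array was left out. The pathway count of 3 became 6 with dim probe sets left out and 2 to 5 with 1 array left out, 5 of them without WT replicate 1. Followers past the threshold were 2, not 1, with dim probe sets left out and with a trended, robust prior. The number of followers, 24, was 3 at r of at least 0.9, 55 with the cortical marker level removed, 50 without WT replicates 3 and 6 (chosen after seeing the data, 11 shared), and 14 to 52 with 1 array left out: 14 without cKO replicate 4, 42 without WT replicate 3, 42 without WT replicate 5 and 52 without WT replicate 6. The cause was not tested. Replicate numbers did not pair the arrays: same-numbered deviations correlated between -0.22 and 0.15, and 0 of 6 WT arrays correlated best with their own number. With the replicate number as a block 64 probe sets passed in place of 185, pathway genes past the threshold were 0 in limma (30 at a raw p below 0.05), and the Foxo1 difference was -1.08.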

Other observations

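Genes near the follower limit, singled out after their values were seen, included Sox8, a transcription factor of the SoxE group, with r of 0.92 in WT and 0.78 in cKO. Sox8 fell by 0.89 ± 0.10 (limma adjusted p = 0.0018). Cxcr4, the receptor for the chemokine Cxcl12, had r of 0.77 and 0.78 and fell by 0.42 ± 0.08 (limma adjusted p = 0.0341). Without WT replicates 3 and 6, 14 of 23 projection neuron markers (60.9%) had r of at least 0.8 with Foxo1 over the 4 remaining WT arrays, where 9.99% of all eligible genes did. Those replicates were left out after the data were seen. The markers were read on the same 4 arrays and are not independent replicates, so nothing is read from this share.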
